A study of Mus musculus with 13 samples.

Results

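The genes described here are 6 chemokines that keratinocytes are known to secrete: Cxcl1, Cxcl2, Cxcl3 and Cxcl5, which attract neutrophils, and Cxcl16 and Ccl20, which attract lymphocytes. They were taken by symbol from a table of 25746 genes, and each symbol matched 1 row. Cxcl1, Cxcl2, Cxcl16 and Ccl20 passed the filter on low counts and were among the 16051 genes tested. Cxcl3 and Cxcl5 did not pass it and are given as counts.

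Bulk RNA-seq had been carried out on FACS-sorted interfollicular keratinocytes, which make up the epidermis outside the hair follicles, from skin of C57/BL6 mice. Every group carries floxed Il12rb2 (Il12rb2fl/fl), which encodes the interleukin-12 receptor chain that signals, and the groups differ in K14Cre and in Aldara, a cream with 5% imiquimod put on the skin for 1 day. Mice with no Cre (floxed control) gave 3 untreated and 3 Aldara libraries, and K14Cre/+ Il12rb2fl/fl mice (K14Cre) gave 4 untreated and 3 Aldara libraries. K14Cre expresses the recombinase in keratinocytes, and a Cre group without floxed alleles and a vehicle-treated group were not analysed here. Since no label says whether replicates are different animals, the p-values below rest on library-to-library spread that could be technical.

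CXCL1, CXCL2, CXCL3 and CXCL5 are ligands of the receptor CXCR2 on neutrophils. CCL20 binds CCR6, which is carried by T cells that make interleukin-17, and CXCL16 is a membrane-bound chemokine for CXCR6, which can be shed by proteases. In the epidermis the neutrophil attractants and CCL20 are known targets of interleukin-17, interleukin-36, TNF and NF-kB, and messages of the neutrophil attractants are short-lived because of AU-rich elements in their 3′ ends. Imiquimod is a Toll-like receptor 7 agonist that is used to produce psoriasis-like inflammation in mouse skin.

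Cxcl5 (chr5:90759360-90761624), Cxcl3 (chr5:90786103-90789600), Cxcl1 (chr5:90891241-90893115) and Cxcl2 (chr5:90903871-90905938) lie on the plus strand of GRCm38 within 146.6 kb, in a cluster that also holds Ppbp, Pf4 and Cxcl15. Ccl20 lies alone at chr1:83116766-83119167 on the plus strand, and Cxcl16 at chr11:70453983-70459984 on the minus strand. The span of Cxcl16 overlaps that of Zmynd15 on the other strand by 552 bases, introns included, and the library method does not mark strand. Zmynd15 was read at 314 to 2093 counts per library against 1225 to 8683 for Cxcl16. Any reads in the overlap cannot be assigned by strand, and how many counted reads lie there is not known. Of the 100-base stretches in transcripts of Cxcl2 and Cxcl3, 69 are identical, which is 3.05% of the stretches of Cxcl2 and 1.88% of those of Cxcl3. The other 4 genes share none with any gene.

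Promoter sequences from RefSeq (GRCm38.p6) matched 4 of the 6 genes and are shown because the 3 neutrophil attractants among them hold the same NF-kB-type motif (the letters GGAATTTCC). Both strands were searched, and the match is in capitals. It begins 70 bases before the annotated start in Cxcl1, 96 in Cxcl2 and 72 in Cxcl3. The same 9 letters stand in 104 of 32851 promoters of this length (0.317%). The Ccl20 window does not hold these letters. Only these exact letters were searched for, so variant NF-kB-type sites were not sought and are not marked in any of the 4 windows.
Cxcl1, chr5:90890995-90891294, plus strand: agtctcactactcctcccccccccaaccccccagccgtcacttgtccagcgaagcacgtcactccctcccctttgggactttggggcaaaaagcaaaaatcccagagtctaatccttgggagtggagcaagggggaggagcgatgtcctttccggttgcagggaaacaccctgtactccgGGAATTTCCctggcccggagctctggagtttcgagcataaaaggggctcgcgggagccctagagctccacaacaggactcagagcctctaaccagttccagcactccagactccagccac
Cxcl2, chr5:90903649-90903948, plus strand: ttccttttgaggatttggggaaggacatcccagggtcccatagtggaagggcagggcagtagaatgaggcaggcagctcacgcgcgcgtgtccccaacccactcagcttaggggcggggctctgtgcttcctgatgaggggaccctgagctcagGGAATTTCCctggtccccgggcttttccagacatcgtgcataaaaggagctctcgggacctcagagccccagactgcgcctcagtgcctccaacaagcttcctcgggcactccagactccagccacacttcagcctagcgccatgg
Cxcl3, chr5:90785851-90786150, plus strand: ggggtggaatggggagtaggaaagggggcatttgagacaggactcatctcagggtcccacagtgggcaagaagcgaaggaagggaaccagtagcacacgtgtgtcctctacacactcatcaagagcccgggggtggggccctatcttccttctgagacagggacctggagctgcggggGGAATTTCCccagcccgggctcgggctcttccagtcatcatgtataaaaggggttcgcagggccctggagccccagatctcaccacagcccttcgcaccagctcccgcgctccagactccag
Ccl20, chr1:83116516-83116815, plus strand: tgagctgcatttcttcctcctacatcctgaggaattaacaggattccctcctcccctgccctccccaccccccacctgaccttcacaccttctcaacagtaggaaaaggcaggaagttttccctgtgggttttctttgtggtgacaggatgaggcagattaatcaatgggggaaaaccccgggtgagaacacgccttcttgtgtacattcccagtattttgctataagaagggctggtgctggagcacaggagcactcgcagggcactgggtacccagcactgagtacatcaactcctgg

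The pentamer ATTTA, the core of AU-rich elements, occurs 11 times in the 3′ untranslated region of Cxcl2, 7 times in that of Cxcl1, 5 times each in those of Cxcl3, Cxcl5 and Ccl20, and 2 times in that of Cxcl16. Among 20646 genes with such a region, 4.87% hold as many or more as Cxcl2, 12.0% as many or more as Cxcl1, and 44.6% as many or more as Cxcl16. These counts are not adjusted for the length of the region, which is 734 bases in Cxcl2 and 1421 in Cxcl16. Within any 30 bases of these regions the pentamer occurs at most 5 times in Cxcl2 and 4 in Cxcl1. It reaches 2 in Cxcl3 and in Ccl20, and 1 in Cxcl5 and in Cxcl16. The richest 30-base windows of Cxcl1, Cxcl2 and Cxcl16 are printed, with the pentamer's letters in capitals. They show tandem copies in Cxcl1 and Cxcl2 and a lone copy in Cxcl16.
Cxcl1: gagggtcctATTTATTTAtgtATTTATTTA
Cxcl2: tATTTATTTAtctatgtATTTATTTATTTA
Cxcl16: ggttttgttgtttagctaagatgttATTTA

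Totals ran from 5830034 to 22232478 counts per library. K14Cre Aldara replicate 1 stood apart, at 159.5 on the first principal component against 38.3 to 63.0 in the other Aldara libraries, so results that rest on it are also given without it. Gm10800, a predicted gene, took over 5% of counts in 3 untreated libraries (floxed control replicate 2, K14Cre replicates 1 and 2). It took 2.22% in floxed control Aldara replicate 2 and 1.17 to 1.32% in all K14Cre Aldara libraries. Il12rb2 was still read in K14Cre untreated libraries (8.52 to 25.6 CPM, against 17.1 to 78.8 in floxed control), so it checks the genotype labels only in part. With Aldara it was lower in both genotypes, at 1.98, 8.14 and 2.68 CPM in floxed control and 0, 1.07 and 1.64 CPM in K14Cre libraries. CPM, the counts scaled to a common library size with edgeR's factors applied, is the unit of all levels below, and a gene is called at a Benjamini-Hochberg adjusted p under 0.05 over all genes tested. Keratinocyte markers were abundant in all libraries, at a summed 26700 to 70320 CPM untreated and 12430 to 21280 CPM after Aldara.

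Among the neutrophil attractants, Cxcl1 carried most of the signal and was higher after Aldara in both genotypes, with a call in K14Cre cells. In floxed control libraries Cxcl1 stood at 29.98, 47.8 and 26.0 CPM untreated and at 86.3, 67.6 and 56.8 CPM after Aldara. All 3 Aldara values lay above all 3 untreated ones. The share of all genes whose groups separate in this way is not given, so lack of overlap here and below only describes the values. The log2 fold change was 1.03 (SE 0.41) and did not pass over all genes (edgeR adjusted p = 0.155). In K14Cre libraries Cxcl1 stood at 25.1, 59.0, 56.8 and 64.4 CPM untreated and at 259.3, 78.1 and 150.3 CPM after Aldara. These groups did not overlap either, and replicate 1 was the highest of all 13 libraries. Cxcl1 rose in K14Cre cells by 1.66 on the log2 scale (SE 0.38, edgeR adjusted p = 0.00865). Without K14Cre Aldara replicate 1 the difference was 1.15 and the call was lost (adjusted p = 0.0604), and without the libraries above 5% Gm10800 it was 1.40 (adjusted p = 0.0570).

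Cxcl2, the neighbour of Cxcl1 in the cluster, was low in 12 of 13 libraries. Floxed control untreated libraries held 0.368, 0.320 and 1.31 CPM, and K14Cre untreated ones 2.40, 2.38, 1.56 and 2.18 CPM. With Aldara the floxed control libraries held 2.36, 3.02 and 0.487 CPM. The K14Cre Aldara libraries held 54.4, 1.28 and 1.71 CPM, so replicate 1 alone, with 532 counts, was high and the other two lay within the range of untreated K14Cre libraries or below it. The log2 fold change with Aldara was 1.48 (SE 1.18, edgeR adjusted p = 0.534) in floxed control and 3.17 (SE 1.09, adjusted p = 0.0618) in K14Cre cells. Without K14Cre Aldara replicate 1 the K14Cre value was -0.50 (adjusted p = 0.863), so its direction rests on that library.

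Cxcl3 and Cxcl5 were at or near the limit of detection. Cxcl3 had 0 to 10 counts per library, at most 0.792 CPM, and 0 counts in 6 of 13 libraries. Counts of it were present in 6 of the 7 libraries with over 1% Gm10800 and in 1 of the other 6, and the part of that predicted gene's share in this was not tested. Cxcl3 shares part of its sequence with Cxcl2, yet it held 0 counts in K14Cre Aldara replicate 1, where Cxcl2 was highest. Cxcl5 had 0 counts in all 13 libraries, which allows up to 0.135 to 0.594 CPM depending on depth (3 counts per library, counting error only). Cxcl1 made up 82.7 to 99.2% of the counts summed over these 4 genes, with the lowest share in K14Cre Aldara replicate 1. The summed level was 27.3 to 66.6 CPM in untreated libraries, 57.3 to 88.8 CPM in floxed control Aldara libraries, and 313.7, 80.1 and 152.5 CPM in K14Cre Aldara libraries.

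Cxcl16, the membrane-bound ligand of CXCR6, was highest in untreated K14Cre cells and fell with Aldara there. It stood at 190.3, 172.4 and 218.7 CPM in floxed control untreated libraries and at 361.8, 296.3, 305.4 and 556.2 CPM in K14Cre untreated ones. With Aldara it stood at 95.3, 183.9 and 164.3 CPM in floxed control and at 125.3, 207.4 and 197.4 CPM in K14Cre libraries. The 4 untreated K14Cre values lay above every value of the other 3 groups. Cxcl16 fell by 1.10 on the log2 scale with Aldara in K14Cre cells (SE 0.29, edgeR adjusted p = 0.0171). In floxed control cells the log2 fold change was -0.39 (SE 0.30, adjusted p = 0.514), and the groups overlapped. Without K14Cre Aldara replicate 1 the K14Cre value was -0.91 and the call was lost (adjusted p = 0.0818).

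Ccl20, the CCR6 ligand, varied more within groups than between them. Its level was 40.4, 76.7 and 76.6 CPM in floxed control untreated libraries, and 38.4, 51.9, 204.3 and 191.5 CPM in K14Cre untreated ones. Aldara libraries held 24.8, 148.2 and 85.0 CPM in floxed control and 65.1, 81.6 and 169.1 CPM in K14Cre. All groups overlapped. The log2 fold change with Aldara was 0.41 (SE 0.65, 95% interval -0.97 to 1.79, edgeR adjusted p = 0.791) in floxed control and -0.21 (SE 0.61, interval -1.50 to 1.08, adjusted p = 0.872) in K14Cre cells. The K14Cre interval includes changes of 1 on the log2 scale in either direction, and the floxed control interval includes a rise of that size. Among K14Cre untreated libraries the 2 low Ccl20 values were those of replicates 1 and 2, with 5.21% and 10.3% Gm10800. The 2 high values came with 0.000543% and 0.00127%, and the part of this share in the Ccl20 level was not tested.

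**Figure D1:**
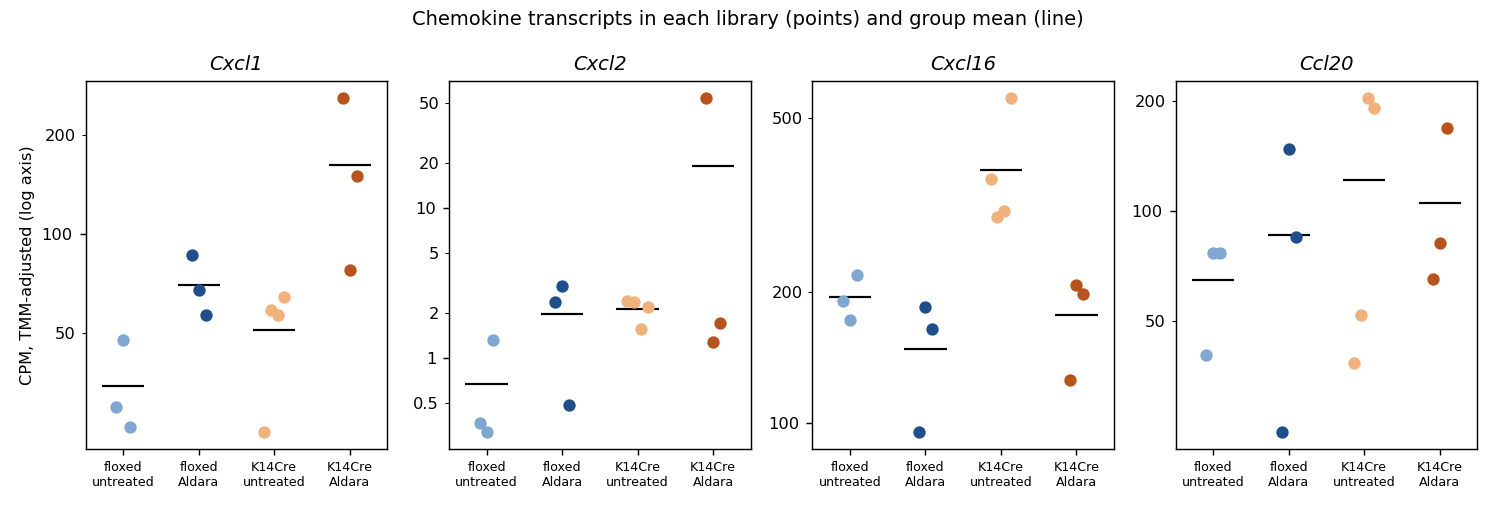
Levels of the 4 tested chemokines in each of 13 libraries (points) and group means (lines), in CPM on a log axis, by genotype and treatment. Cxcl1 is higher in all Aldara libraries than in the untreated libraries of the same genotype, Cxcl16 is highest in the 4 untreated K14Cre libraries, and 1 K14Cre Aldara library holds the high Cxcl2 value of 54.4 CPM.

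The chemokine calls are set here beside the share of all genes called in the same comparison. In floxed control cells 0 of the 4 tested chemokines were called by edgeR, 1 (Cxcl1) at an unadjusted p under 0.05, and 0 by DESeq2 and by limma voom. There 7.05% of all tested genes were called, 4.15% as higher and 2.90% as lower. Of the 16051 genes, 3411 had an unadjusted p under 0.05 in this comparison, so the Cxcl1 value is not set apart by that threshold. In K14Cre cells 2 of the 4 were called, Cxcl1 as higher and Cxcl16 as lower, against 15.5% of all tested genes, 7.81% higher and 7.69% lower. The same 2 calls were made by DESeq2 and by limma voom. The median log2 fold change over all tested genes was -0.13 in floxed control and -0.10 in K14Cre cells.

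Averaged over both genotypes, the Aldara effect used all 13 libraries. Cxcl1 rose by 1.35 on the log2 scale (SE 0.28, edgeR adjusted p = 0.00265) and Cxcl16 fell by 0.75 (SE 0.21, adjusted p = 0.0149). Both were called in each of the 13 fits that left out 1 library. For Cxcl1 the value ran from 1.09 to 1.51 and for Cxcl16 from -0.84 to -0.63. Cxcl2 passed narrowly, at 2.32 (SE 0.81, adjusted p = 0.0465), but it was called in only 4 of those 13 fits and stood at 0.51 (adjusted p = 0.692) without K14Cre Aldara replicate 1. Ccl20 stood at 0.10 (SE 0.44, adjusted p = 0.899). These 3 calls among 4 compare with 24.9% of all tested genes called.

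The ratio of Cxcl1 to Cxcl16 counts within a library does not depend on how libraries are scaled. It was 0.158, 0.277 and 0.119 in floxed control untreated libraries and 0.0694, 0.199, 0.186 and 0.116 in K14Cre untreated ones. With Aldara it was 0.906, 0.368 and 0.346 in floxed control and 2.07, 0.377 and 0.762 in K14Cre libraries. Each of the 6 Aldara values lay above each of the 7 untreated ones, and the ratio was chosen after its values were seen. Per kilobase of transcript, Cxcl1 was above Cxcl16 in 5 of 6 Aldara libraries and in 0 of 7 untreated ones. Per kilobase, Ccl20 was above Cxcl1 in 11 of 13 libraries and above Cxcl16 in 9 of 13, and Cxcl1 was above Cxcl2 in all 13. As group means per kilobase in floxed control untreated libraries, Ccl20 stood at 81.3 ± 26.3 (SD, n = 3), Cxcl16 at 71.8 ± 8.65 and Cxcl1 at 36.3 ± 12.2 CPM per kb. Within these libraries Ccl20 was above Cxcl16 in replicates 2 and 3 and below it in replicate 1. With Aldara in K14Cre cells the means were 170.6 ± 95.7 for Cxcl1, 132.5 ± 70.4 for Ccl20, 65.5 ± 16.6 for Cxcl16 and 17.3 ± 27.6 for Cxcl2 (SD, n = 3). There Cxcl1 was above Ccl20 in replicate 1 only and below it in replicates 2 and 3.

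Between the genotypes no chemokine passed. In untreated cells Cxcl16 was 0.97 higher on the log2 scale in K14Cre than in floxed control libraries (SE 0.29, unadjusted p = 0.00391 from edgeR's quasi-likelihood test), with no overlap of the groups and rank 46 of 16051 genes by p. Its edgeR adjusted p was 1. In this comparison 0 of all genes (0%) were called and 599 of the 16051 had an unadjusted p under 0.05. The untreated Cxcl2 values of the genotypes did not overlap either, on 3 to 34 counts per library. A difference in Cxcl2 was not shown, at 1.61 (SE 1.13, unadjusted p = 0.174 from edgeR's quasi-likelihood test, adjusted p = 1). The share of all genes whose groups do not overlap is not given here, so lack of overlap is a description only. For Cxcl1 the untreated difference was 0.57 (SE 0.39) and for Ccl20 0.92 (SE 0.62), both with an edgeR adjusted p of 1.

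With Aldara, K14Cre libraries exceeded floxed control ones by 1.21 for Cxcl1 (SE 0.41, edgeR unadjusted p = 0.0101, adjusted p = 0.982), with overlapping groups. For Cxcl2 the value was 3.30 (SE 1.22, adjusted p = 0.982), which became -0.38 without K14Cre Aldara replicate 1. Cxcl16 stood at 0.26 (SE 0.30) and Ccl20 at 0.29 (SE 0.65). Again 0% of all genes were called, and 690 had an unadjusted p under 0.05. Of the 4 chemokines, 1 untreated and 2 after Aldara had an unadjusted p under 0.05, and DESeq2 and limma voom called 0 of them in either comparison. DESeq2 called 13 and 31 genes of the whole table and limma voom 0.

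The difference between the Aldara effects of the genotypes was 0.64 for Cxcl1 (95% interval -0.55 to 1.82), 1.69 for Cxcl2 (-1.68 to 5.05), -0.71 for Cxcl16 (-1.59 to 0.16) and -0.62 for Ccl20 (-2.51 to 1.27). Each had an edgeR adjusted p of 1. So the Cxcl1 and Cxcl16 calls in K14Cre cells are not shown to differ from the floxed control values. Over all genes 0% were called for this interaction by edgeR, with 539 at an unadjusted p under 0.05 and 3 called by DESeq2. Averaged over treatments, the K14Cre difference was 0.89 for Cxcl1, 2.46 for Cxcl2, 0.62 for Cxcl16 and 0.61 for Ccl20, with edgeR adjusted p from 0.894 to 0.925. There 0% of all genes were called, 889 had an unadjusted p under 0.05, and DESeq2 called 18. These comparisons share libraries with those above.

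**Figure D2:**
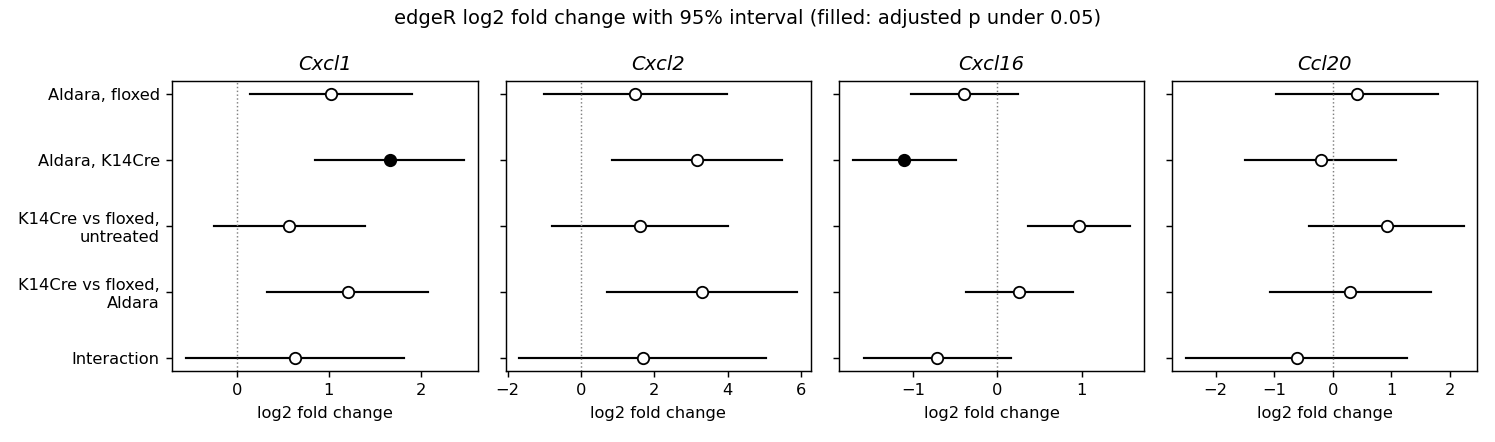
Log2 fold changes of the 4 tested chemokines in 5 comparisons, with 95% intervals from edgeR (filled points have an adjusted p under 0.05). The 2 filled points are Cxcl1 (1.66) and Cxcl16 (-1.10) for Aldara in K14Cre cells, and all interaction intervals include 0.

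**Figure D3:**
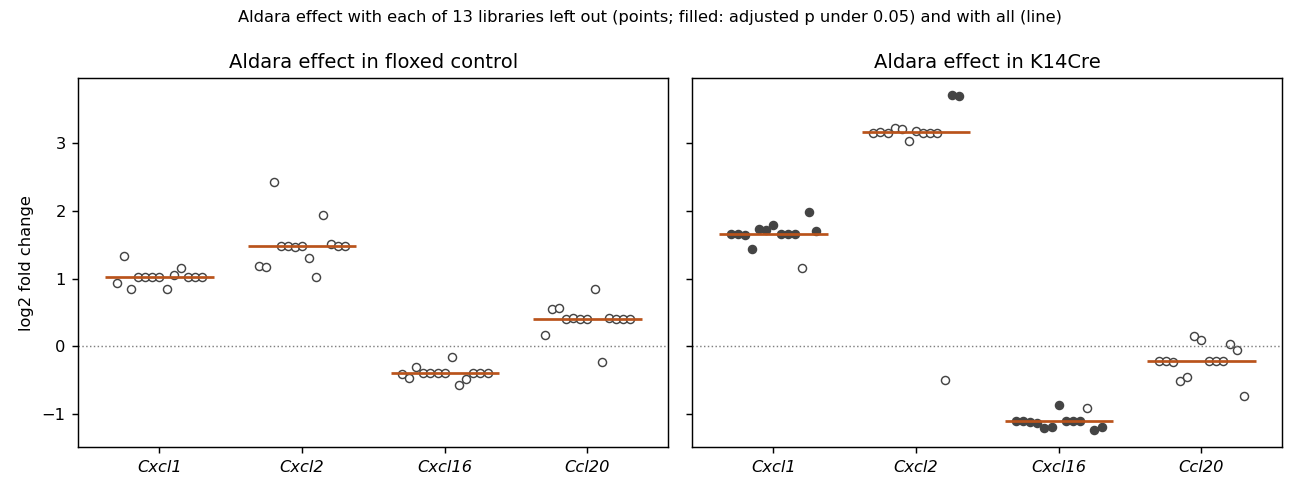
Log2 fold change with Aldara when each of the 13 libraries is left out in turn (points, filled where the adjusted p is under 0.05), beside the value from all libraries (line). In K14Cre cells the open Cxcl1 point at 1.15, the open Cxcl16 point at -0.91 and the Cxcl2 point at -0.50 all come from leaving out Aldara replicate 1.

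The lists that follow were not tested against other genes, and their counts stand beside the share of all tested genes called with Aldara, which was 4.15% higher and 2.90% lower in floxed control and 7.81% higher and 7.69% lower in K14Cre cells. Without the libraries above 5% Gm10800, 270 of 15863 genes were called in floxed control and 1466 in K14Cre cells, in either direction. Without K14Cre Aldara replicate 1, 1682 of 17296 were called in K14Cre cells. Calls lost below under these settings thus stand beside a loss of calls over all genes. Of 30 other chemokines listed, 21 were tested. In floxed control cells 0 rose and 2 fell. Cxcl10, an interferon-induced chemokine, fell by 1.54 on the log2 scale (SE 0.44, edgeR adjusted p = 0.0482) and Cxcl14, which epidermis makes constitutively, fell by 1.37 (SE 0.37, adjusted p = 0.0396). In K14Cre cells 1 rose and 2 fell. Cxcl9, also interferon-induced, rose by 2.24 (SE 0.71, adjusted p = 0.0444). Cxcl14 fell by 1.53 (SE 0.36) and Ccl27a, a keratinocyte chemokine for skin-homing T cells, fell by 1.60 (SE 0.39), with edgeR adjusted p of 0.00998 and 0.0123. The list's median log2 fold change was -0.58 in floxed control and -0.66 in K14Cre cells. The Cxcl10 and Cxcl9 calls stood in only 3 and 4 of 13 fits that left out 1 library, and Cxcl9 was not called without K14Cre Aldara replicate 1 (2.43, adjusted p = 0.0584). Without the libraries above 5% Gm10800 Cxcl9 was called, but Cxcl10, Cxcl14 and Ccl27a were not (adjusted p from 0.0642 to 0.175).

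The receptor of the neutrophil attractants, Cxcr2, was low. It was read at 0 to 1.19 CPM untreated, at 0.192, 2.09 and 2.24 CPM in floxed control Aldara libraries and at 9.31, 3.00 and 4.99 CPM in K14Cre Aldara libraries. The K14Cre groups did not overlap, and the log2 fold change of 3.70 (SE 1.65) did not pass (edgeR adjusted p = 0.151). Without the libraries above 5% Gm10800 it was called there (adjusted p = 0.0250), with 0 counts in the 2 untreated libraries left. Cxcr1 had 0 counts in all 13 libraries, Ccr6 stood at 0 to 1.12 CPM and Cxcr6 at 0 to 2.36 CPM. Of 7 receptors and scavengers tested, 0 rose, 2 fell in floxed control and 1 fell in K14Cre cells. Ackr3, an atypical receptor that takes up CXCL11 and CXCL12, fell by 2.18 (SE 0.37, adjusted p = 0.00532) and 2.24 (SE 0.36, adjusted p = 0.00118) on the log2 scale in the respective genotypes, and in all 13 fits that left out 1 library. Ackr2, which scavenges inflammatory CC chemokines, fell by 3.92 in floxed control (SE 1.09, adjusted p = 0.0438), a call present in 5 of 13 such fits and lost without the libraries above 5% Gm10800 (adjusted p = 0.194). The medians of the 7 were -2.06 and -1.70.

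Of 26 inducing cytokines and their receptors, 21 were tested. In floxed control 0 rose and 1 fell, and in K14Cre cells 1 rose and 4 fell. Il1rn, the interleukin-1 receptor antagonist, fell in both, by 2.52 (SE 0.54, edgeR adjusted p = 0.0136) and 3.03 (SE 0.54, adjusted p = 0.00202) on the log2 scale. The floxed control call was lost without the libraries above 5% Gm10800 (-2.64, adjusted p = 0.0568). In K14Cre cells Il17ra, a subunit of the interleukin-17 receptor, Il1rap, the accessory chain of interleukin-1 and interleukin-36 receptors, and Il1rl2, the interleukin-36 receptor, fell by 1.22, 1.17 and 1.02. Tnfrsf1a, the main TNF receptor, rose there by 0.75. Those 4 calls were lost without K14Cre Aldara replicate 1 (adjusted p from 0.0669 to 0.102). Il36g stood at -0.68 and -0.37 and was not called. Over the 21 the medians were -0.68 and -0.58.

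All 20 listed adaptors and transcription factors were tested. In floxed control 1 rose and 1 fell, and in K14Cre cells 2 rose and 7 fell. Cebpb, a transcription factor of inflammatory genes in epidermis, rose by 2.37 (SE 0.52) in floxed control and 1.85 (SE 0.47) in K14Cre cells on the log2 scale, with edgeR adjusted p of 0.0149 and 0.0144. Rela, which encodes the p65 subunit of NF-kB, fell by 1.40 in K14Cre cells (SE 0.25, adjusted p = 0.00191), from 179.2 to 310.3 CPM untreated to 77.5 to 107.8 CPM with Aldara. Nfkb2 and Relb, of the non-canonical NF-kB branch, fell by 1.501 and 1.60 there. Rela, Nfkb2 and Relb were called in all 13 fits that left out 1 library. The AP-1 gene Fos fell in both genotypes, by 1.92 and 1.35, and its partner Jun fell by 1.67 in K14Cre cells. The K14Cre calls of Fos and Jun were lost without Aldara replicate 1 (adjusted p = 0.0810 and 0.0531). Without the libraries above 5% Gm10800 the Fos calls were lost in both genotypes and that of Cebpb in K14Cre cells (adjusted p from 0.0642 to 0.0983). Without K14Cre Aldara replicate 1, 2 genes of the list rose and 3 fell in K14Cre cells. The list's medians were -0.21 and -0.50.

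A further list holds genes that act on the decay of chemokine messages or on feedback. All 15 were tested, and 1 rose and 4 fell in floxed control, 1 rose and 5 fell in K14Cre cells. Zfp36 encodes tristetraprolin, which binds AU-rich elements such as those printed above for Cxcl1 and Cxcl2 and promotes decay. It fell by 1.94 (SE 0.46, edgeR adjusted p = 0.0206) and 1.92 (SE 0.44, adjusted p = 0.00891) on the log2 scale. Tnfaip3, the A20 feedback inhibitor of NF-kB, fell by 2.35 and 3.01. Socs3, an inhibitor of cytokine receptor signalling, fell by 1.90 and 2.07, and Dusp1, a phosphatase of MAP kinases, by 1.99 and 2.23. Arid5a, which encodes an RNA-binding protein that stabilises inflammatory messages, fell by 1.97 in K14Cre cells (SE 0.35, adjusted p = 0.00216). In K14Cre cells Zfp36, Arid5a, Tnfaip3, Socs3 and Dusp1 were called in all 13 fits that left out 1 library, and in floxed control Zfp36, Tnfaip3, Socs3 and Dusp1 were each called in 9 of 13. The RNA-binding protein genes Elavl1 (floxed control, 0.66) and Khsrp (K14Cre, 1.36) were the ones that rose. Elavl1 was called in 5 of 13 such fits and Khsrp in 7, and Khsrp stood at 1.17 (adjusted p = 0.102) without K14Cre Aldara replicate 1. Without the libraries above 5% Gm10800, 0 of these 15 were called in floxed control and 5 fell in K14Cre cells. Over all 15863 genes tested in that setting, 270 and 1466 were called. Medians of the list were -0.26 and -0.49.

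Of 7 proteases that act on chemokines, 6 were tested, and 1 call was made. Dpp4, which trims the amino end of several chemokines, fell by 3.07 in K14Cre cells (SE 0.84, edgeR adjusted p = 0.0219). This call was lost without the libraries above 5% Gm10800 (-3.37, adjusted p = 0.0645). Adam10, the protease known for shedding CXCL16, stood at 70.6 to 116.1 CPM untreated and at 55.9 to 142.2 CPM with Aldara, with overlapping ranges. The list's medians were -0.58 and -0.89 on the log2 scale.

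Of 15 other type 3 response genes of keratinocytes, 9 were tested. Of these, 3 rose in floxed control and 6 in K14Cre cells, and 0 fell. Lcn2, an antimicrobial iron-siderophore binder, rose by 4.17 (SE 1.15, edgeR adjusted p = 0.0425) and 6.36 (SE 1.13, adjusted p = 0.00197) on the log2 scale. S100a8, a subunit of calprotectin, rose by 4.20 and 4.72, and Slpi, an antiprotease, by 3.98 and 6.60. These 3 were called in K14Cre cells in all 13 fits that left out 1 library. In floxed control they were called in 6, 7 and 5 of 13. Without the libraries above 5% Gm10800, 0 of the 9 genes were called there, beside 270 of all 15863. In K14Cre cells S100a9 and Saa3 were called as well, at 3.72 and 4.66. Il20 had 0 counts in all K14Cre untreated libraries and stood at 1.43, 1.93 and 3.69 CPM with Aldara. Those 3 calls were lost without K14Cre Aldara replicate 1 (adjusted p from 0.0518 to 0.0720). The median was 3.06 in floxed control (2.79 with Il20 at its bound from 3 counts per library) and 4.72 in K14Cre cells (4.66).

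**Figure D4:**
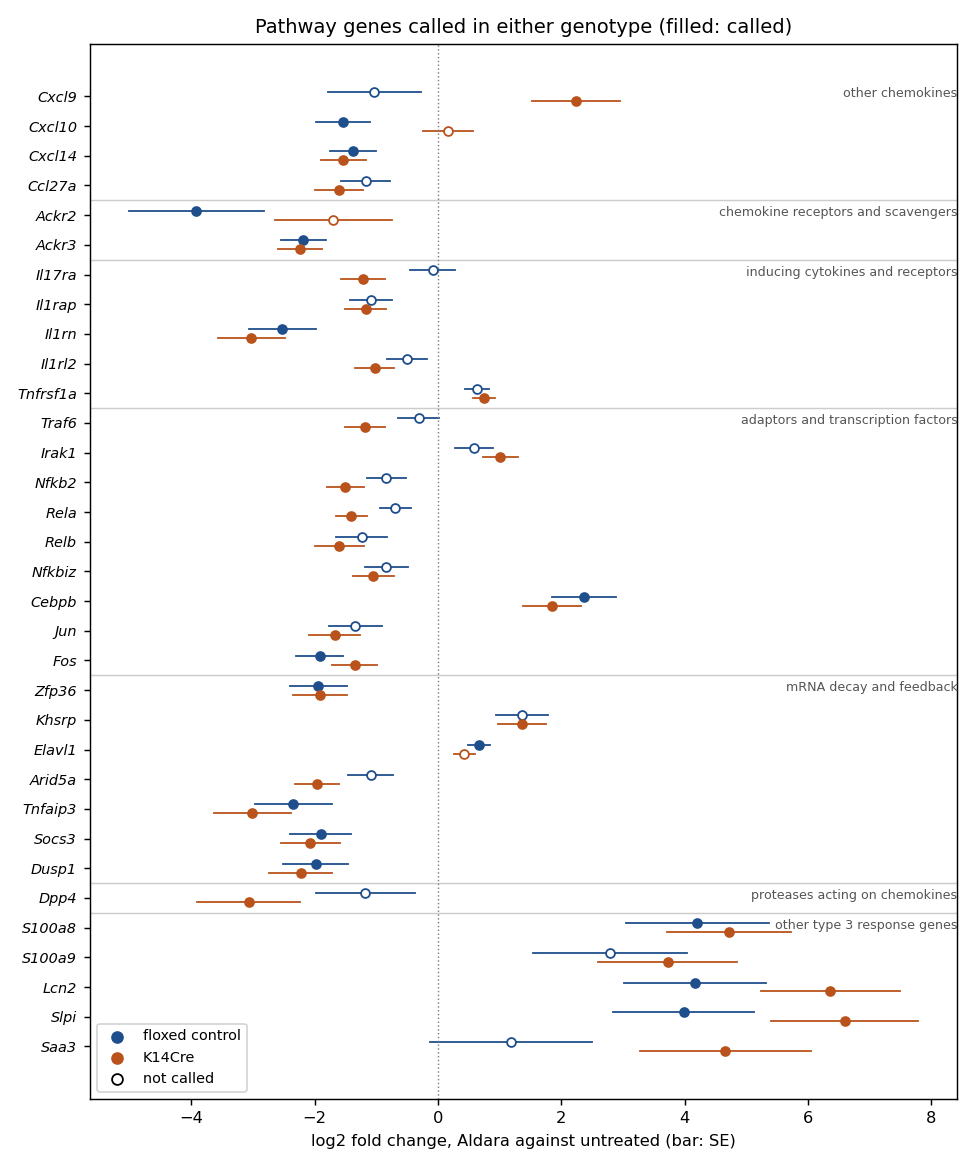
Log2 fold change with Aldara (points, bars of 1 SE) in floxed control and K14Cre cells for each listed pathway gene called in at least 1 genotype, filled where called, except genes with a group at 0 counts. Zfp36, Tnfaip3, Socs3, Dusp1, Il1rn and Ackr3 lie left of 0 in both genotypes, and Lcn2, S100a8, Slpi and Cebpb lie right of 0.

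Keratinocyte and fibroblast markers fell with the treatment, and defining neutrophil markers were near 0 throughout. Of 8 keratinocyte markers, 5 fell in floxed control and 7 in K14Cre cells, with median log2 fold changes of -1.43 and -2.10. Without the libraries above 5% Gm10800, where 270 and 1466 of all 15863 genes were called, 3 of 8 in floxed control and 6 of 8 in K14Cre cells fell. Summed fibroblast markers were 778.1 to 1885 CPM in untreated libraries and 10.6 to 307.6 CPM in Aldara libraries, with the lowest value in K14Cre Aldara replicate 1, and 3 of 7 in floxed control and 5 of 7 in K14Cre cells fell. Without the libraries above 5% Gm10800, 0 of 7 in floxed control and 5 of 7 in K14Cre cells were called. Summed T cell markers were 15.7 to 35.8 CPM untreated and 6.28 to 9.98 CPM with Aldara in floxed control. In K14Cre libraries they were 22.2 to 43.8 and 9.71 to 20.5 CPM. Endothelial sums were 47.2 to 76.5 and 10.0 to 17.7 CPM in floxed control. The K14Cre ones were 18.6 to 90.9 and 5.95 to 51.0 CPM. Of 5 tested in each list, 1 fell in floxed control (Trbc2 and Rgs5) and 0 in K14Cre cells. The Trbc2 call was lost without the libraries above 5% Gm10800. Summed neutrophil markers were 4.74 to 23.3 CPM untreated and 4.85 to 57.3 CPM with Aldara. The 57.3 CPM in floxed control Aldara replicate 3 was mostly Ltf (54.2 CPM), a gene of neutrophil granules and secretory epithelia. Ly6g, a defining neutrophil marker, stood at 0 to 0.320 CPM and Elane at 0 to 0.205 CPM. In K14Cre Aldara replicate 1, which held the highest Cxcl1 and Cxcl2, the sum was 10.2 CPM, of which Cxcr2 made up 9.31. Summed macrophage, dendritic and Langerhans cell markers were 66.5 to 410.7 CPM untreated and 148.0 to 773.7 CPM with Aldara. Of 12 tested, 2 (H2-Aa and H2-Ab1) rose in K14Cre cells and 0 fell. The list's median log2 fold changes were -0.43 in floxed control and -0.55 in K14Cre cells. In K14Cre Aldara replicate 3, with the highest sum, Cd74, H2-Aa and H2-Ab1 stood at 455.2, 113.6 and 175.2 CPM. Cd207, also listed, stood at 0 CPM in all K14Cre Aldara libraries. The part of these cells in the chemokine levels was not tested, and in bulk samples fewer cells of a type and less RNA per cell cannot be told apart.

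**Figure D5:**
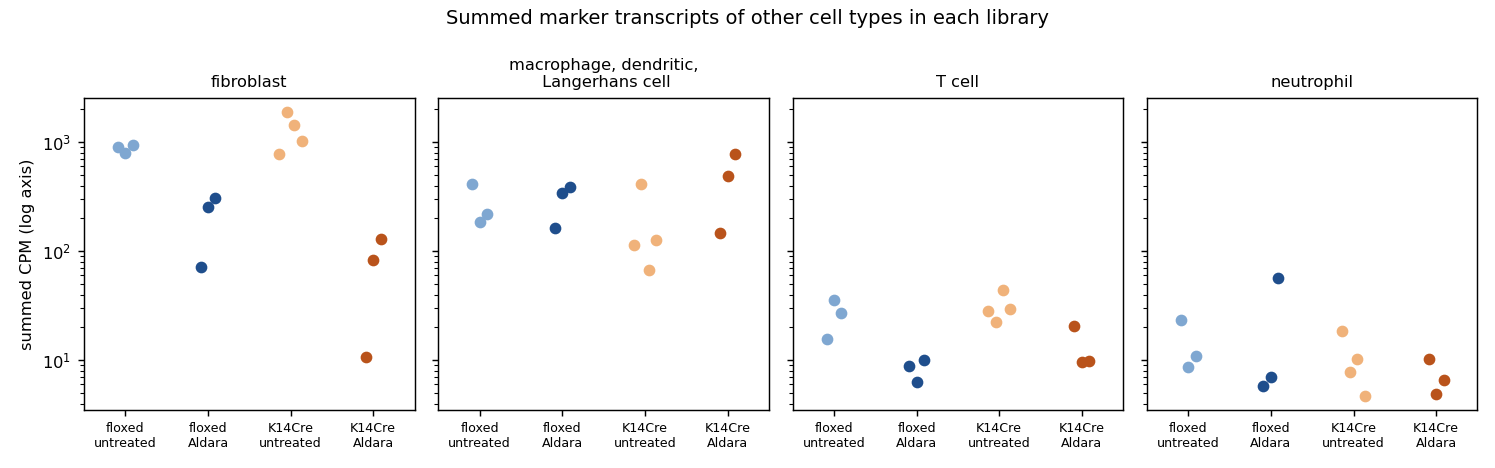
Summed CPM (log axis) of marker genes of 4 other cell types in each library, by genotype and treatment. The 6 Aldara libraries lie below all 7 untreated ones for fibroblast markers, and neutrophil marker sums stay between 4.74 and 57.3 CPM.

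The genes most alike to each chemokine across the 13 libraries were taken among 9719 others whose mean log2 CPM reached 3 or more, by Pearson's r of log2 CPM. All points share the split by treatment and differ in depth and Gm10800 share, so r is a description. For Cxcl1 they were Lratd2 (r = 0.945), Gtf2h1 (0.905), a subunit of the TFIIH complex, and Isyna1 (0.899), which makes inositol phosphate. For Cxcl16 they were Ifrd1 (0.952), Ppp1r15b (0.951), a regulator of eIF2 dephosphorylation, and Serpinb2 (0.948), the plasminogen activator inhibitor of keratinocytes and macrophages. Serpinb2 fell in K14Cre cells with Aldara by 3.76 on the log2 scale (edgeR adjusted p = 0.00465). For Cxcl2 they were Lmbrd1 (0.890), Cwc22 (0.884) and Zc3hc1 (0.873), and Spearman's rho was lower, 0.522 to 0.720, in these 3 cases. For Ccl20 likeness was weaker, with Med10 (0.807), Per1 (0.800), a circadian clock gene, and Slc25a32 (0.799).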

How the data were processed

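Per the labels' protocols, total RNA of FACS-sorted interfollicular keratinocytes was made into Smart-seq2 libraries, which carry no strand or molecular identifiers, and sequenced as single-end reads of 100 bases. The deposited values are raw counts per gene, 1 column per library, which the authors had not normalized. The submitters' processing notes name STAR, featureCounts of Subread and build GRCm38. Versions, annotation and the handling of multi-mapping reads: not given in the sources used here.

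Genes were kept with edgeR's filterByExpr (minimum count 10). TMM factors and edgeR 4.0.16's quasi-likelihood test (R 4.3.3) over all 13 libraries and 4 groups gave 7 contrasts, with Benjamini-Hochberg adjustment over 16051 genes and a threshold of 0.05. SE was taken from the F statistic, as the absolute log2 fold change over its square root. Alternatives were median-of-ratios factors, no filter, DESeq2 1.42.0, limma 3.58.1 (voom), a replicate block, the compared groups alone, libraries left out, and library sizes without Gm10800. The limit of 5% Gm10800 was chosen after the data were seen. No pair of libraries of a group agreed within counting noise. The steps were tested on simulated counts.

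The members, and the 14 gene lists (182 entries, all found, 4 through synonyms), were chosen with earlier results of these data known. Named genes are the members in every contrast, up to 4 called genes per list and contrast by smallest p, the 3 genes most alike to each tested member, and Il12rb2. Others named (Elavl1, Khsrp, Il1rl2, S100a9, Saa3, H2-Aa, H2-Ab1, Cxcr2, Cxcr1, Ccr6, Cxcr6, Il36g, Adam10, Zmynd15, Gm10800 and single markers) were chosen for their role or after their values were seen. Coordinates and transcripts are from GENCODE M21 (GRCm38), and levels per kilobase use the length of 1 principal transcript. Intervals and floors cover counting error or library spread only.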

Additional observations from a re-analysis of the deposited data

How the results depend on the processing

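The averaged Aldara calls of Cxcl1 and Cxcl16 were made under every alternative that could be fitted for them. In K14Cre cells, without Aldara replicate 1 the number of chemokines called was 0 against 2, and it ran from 0 to 3 over the 13 fits that left out 1 library. Without the libraries above 5% Gm10800 it was 1, and Cxcl1 stood at 1.40. Cxcl2 in K14Cre cells was called with no filter (adjusted p = 0.0312). Averaged over genotypes it was not called under limma voom (0.96), the replicate block (1.66, adjusted p = 0.277) or without the libraries above 5% Gm10800 (2.25), and DESeq2 gave it no adjusted p in any contrast. Its interaction was -0.16 under limma voom.

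Leaving out K14Cre Aldara replicate 1 turned Cxcl2 to -0.50 (Aldara in K14Cre), -0.38 (genotypes after Aldara) and -2.02 (interaction), where the highest values with 1 library left out were 3.71, 3.85 and 2.23. Ccl20, never called, changed sign with the replicate block (0.29 in K14Cre, 0.03 for the interaction), without libraries above 1% Gm10800 (-0.06, floxed control) or above 5% (-0.19, averaged). With single libraries left out it ran from -0.23 to 0.85 in floxed control, from -0.74 to 0.16 in K14Cre cells, from -0.23 to 0.94 between genotypes after Aldara, from -1.15 to 0.017 for the interaction and from -0.22 to 0.32 averaged. The cause was not tested.

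Over all genes, calls in floxed control numbered 1132, but 2141 by DESeq2, 52 without libraries above 1% Gm10800 and 270 above 5%, and 215 to 1451 with 1 library left out. In K14Cre cells 2489 became 1466 without libraries above 5%, and 1650 to 2764 with 1 left out, and the averaged 3994 became 2622. Calls between genotypes, 0 in edgeR, were 3 (untreated), 1 (after Aldara) and 4 (averaged) with no filter, 13, 31 and 18 by DESeq2, and 1 (averaged) without libraries above 5%. For the interaction they were 3 by DESeq2 and 0 to 1 with 1 library left out. The limit of 1% left no K14Cre Aldara library, so only 2 contrasts could be fitted.

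Whether replicate numbers pair the samples was not settled. Of 18 pairs of libraries with the same number in different groups, 6 had a correlation of deviations over 0.1 (range -0.16 to 0.42). Pairs with different numbers ran from -0.445 to 0.369, and 6 of 13 libraries matched best a library of their own number. In the fit with the replicate block, Aldara calls numbered 831 in floxed control, 1919 in K14Cre cells and 3581 averaged, against 1132, 2489 and 3994. The depth limits Cxcl2, Cxcl3 and Cxcl5.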
